A study of Mus musculus with 23 samples.

Results

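The Kcnq1ot1 domain is a cluster of imprinted genes on distal mouse chromosome 7, taken here as chr7:142960000-143520000 (GRCm38), a stretch of 560 kb. Its members are Kcnq1ot1, Kcnq1, Cdkn1c, Phlda2, Ascl2 and Cd81, in the order Ascl2, Cd81, Kcnq1, Kcnq1ot1, Cdkn1c and Phlda2 along the plus strand. The data are CpG methylation levels over windows of 100 CpG positions, and a window belongs to the domain when its midpoint lies inside it. This gave 115 of 402812 windows in the E7.5 tables and 97 of 333984 windows in the E6.5 table. Of the domain windows, 3 at each day had their midpoint in the germ line differentially methylated region (gDMR) of Kcnq1ot1, taken as chr7:143286000-143298000.

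The series holds 23 post-bisulphite adaptor tagging libraries from mouse epiblast, the layer that forms the embryo, and extra-embryonic ectoderm (ExE), the trophoblast that contributes to the placenta. The crosses were B6/CAST (C57BL6/Babr mother, CAST/Ei father) and CAST/B6, the reciprocal cross, with the mother named first. At E6.5 another cross, matDKO/CAST, had mothers of mixed C57BL6/Babr/129 background that were floxed/floxed for Dnmt3a and Dnmt3b and positive for Zp3, the oocyte promoter that drives Cre, so that the de novo DNA methyltransferases are lost in the growing oocyte, and CAST/Ei fathers. The embryos of this cross carry a deleted maternal copy and an intact paternal copy of each methyltransferase gene, and all other embryos are wild type. At E6.5 there were 3 B6/CAST, 3 CAST/B6 and 2 matDKO/CAST epiblast libraries, each from 4 pooled embryos, and 2, 2 and 3 ExE libraries, each from 8 pooled embryos. These libraries were made from the input of chromatin digested with micrococcal nuclease. At E7.5 there were 2 libraries per cross and tissue, each from 1 embryo, and these alone were split into maternal and paternal alleles. Some p-values below therefore measure spread between pools and others spread between single embryos.

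Imprinted genes are expressed from 1 parental allele. In this domain the maternal gDMR is methylated in the oocyte and covers the promoter of Kcnq1ot1, a long non-coding RNA that is transcribed antisense to Kcnq1 from the unmethylated paternal allele and silences neighbouring genes in cis. Genes close to Kcnq1ot1, such as Cdkn1c and Phlda2, are imprinted in embryo and placenta, whereas those farther away, such as Ascl2 and Cd81, are imprinted mainly in trophoblast, where repressive histone marks on the paternal allele are the better known layer. The comparison asked here is whether gene promoters away from the gDMR carry allelic DNA methylation in ExE. No expression was analysed here.

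The gDMR sequence carries copies of TGCCGC, the hexamer recognized by ZFP57, a zinc finger protein that protects imprints in the early embryo. In the gDMR 4 copies of TGCCGC or its reverse complement were found, and 3 of them lay in the window chr7:143295640-143296400. Of the 5920 autosomal windows of like length (within 1.25 times either way), 40.7% held at least 1 copy and 2.43% held 3 or more. The stretch that holds these 3 copies, at chr7:143295659-143295908 on the minus strand (GRCm38.p6), is shown because its window was called by parent of origin in both tissues. The hexamers, on either strand, are in capitals.
gDMR: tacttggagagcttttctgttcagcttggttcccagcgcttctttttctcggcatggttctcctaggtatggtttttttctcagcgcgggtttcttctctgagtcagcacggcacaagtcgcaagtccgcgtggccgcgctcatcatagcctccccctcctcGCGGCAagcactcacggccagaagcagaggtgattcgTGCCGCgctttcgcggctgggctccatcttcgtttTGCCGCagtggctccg

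The promoter sequences of Kcnq1ot1 and of 3 genes whose 5′-end values on the 2 parental alleles did not overlap in ExE, none of which passed the adjusted threshold, are shown from RefSeq (GRCm38.p6, 250 bases before to 50 after the RefSeq start), with CpG dinucleotides in capitals. RefSeq promoters were found for 8 of the 10 genes with a 5′ end in the domain. Cd81 and Tssc4 promoters had 23 CpGs each and Phlda2 had 26, against a median of 7 over 31396 autosomal promoters, and 22.1%, 22.1% and 17.4% of those promoters had as many or more. Kcnq1ot1 had 9. None of these 4 promoters contained TGCCGC on either strand, which 11.6% of autosomal promoters did. The Kcnq1ot1 promoter lies at chr7:143296498-143296797 (minus strand), Cd81 at chr7:143052500-143052799 (plus), Tssc4 at chr7:143069118-143069417 (plus) and Phlda2 at chr7:143502475-143502774 (minus).
Kcnq1ot1: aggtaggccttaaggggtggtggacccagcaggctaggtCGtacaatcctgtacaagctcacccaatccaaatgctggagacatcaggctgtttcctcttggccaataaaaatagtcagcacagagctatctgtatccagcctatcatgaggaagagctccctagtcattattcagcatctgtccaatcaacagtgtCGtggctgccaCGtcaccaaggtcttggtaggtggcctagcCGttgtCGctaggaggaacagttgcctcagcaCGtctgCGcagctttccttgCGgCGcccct
Cd81: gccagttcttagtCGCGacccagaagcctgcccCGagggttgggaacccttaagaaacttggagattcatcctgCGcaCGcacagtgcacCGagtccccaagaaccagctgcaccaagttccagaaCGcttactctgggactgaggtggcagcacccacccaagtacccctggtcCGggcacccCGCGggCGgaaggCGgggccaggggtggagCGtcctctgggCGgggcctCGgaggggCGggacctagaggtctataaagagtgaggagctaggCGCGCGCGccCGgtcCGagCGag
Tssc4: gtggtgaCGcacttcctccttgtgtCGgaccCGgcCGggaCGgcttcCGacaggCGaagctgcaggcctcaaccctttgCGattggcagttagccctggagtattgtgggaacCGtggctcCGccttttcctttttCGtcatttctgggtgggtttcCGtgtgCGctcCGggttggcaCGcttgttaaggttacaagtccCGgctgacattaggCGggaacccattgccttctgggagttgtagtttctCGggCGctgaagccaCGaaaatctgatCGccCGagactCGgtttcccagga
Phlda2: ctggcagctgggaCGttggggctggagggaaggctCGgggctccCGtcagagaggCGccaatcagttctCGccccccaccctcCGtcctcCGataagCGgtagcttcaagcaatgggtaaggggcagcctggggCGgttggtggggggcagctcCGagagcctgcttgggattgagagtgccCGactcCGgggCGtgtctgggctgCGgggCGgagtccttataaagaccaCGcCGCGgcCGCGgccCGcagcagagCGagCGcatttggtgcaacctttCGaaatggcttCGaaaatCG

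The depth behind a window is unknown, since the files give percentages without read numbers. At E7.5 each library had a value at all but 0.00312% to 0.0973% of autosomal windows, and the allelic values of a library lacked 9.49% to 24.3%. At E6.5 the missing share reached 27.8% in the matDKO/CAST epiblast replicate 3. The mean over autosomal windows ran from 56.1% to 59.2% in E7.5 ExE and from 71.7% to 75.6% in E7.5 epiblast. At E6.5 the B6/CAST and CAST/B6 libraries themselves differed, with ExE means of 50.5% and 50.6% against 64.5% and 61.8%. As a check of the labelled tissues, the 5′-end window of the trophoblast gene Elf5, which is methylated in embryonic cells, was at 60.8% to 69.1% in E7.5 ExE and 80.4% to 92.6% in epiblast, and that of the pluripotency gene Pou5f1 was at 37.2% to 42.1% in ExE and 11.4% to 25.0% in epiblast. These windows are 4811 and 3573 bases long and reach beyond the promoters. The 5′-end window of Nanog, another pluripotency gene, was at 51.6% to 62.6% in ExE and 37.4% to 45.5% in epiblast.

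In 2 of the 3 gDMR windows the maternal allele was methylated and the paternal allele was near 0, in both tissues and both crosses. In the window chr7:143293438-143295636, inside Kcnq1ot1 and an intron of Kcnq1, the maternal allele in ExE was at 94.2% and 96.8% in the B6/CAST replicates and at 93.8% and 94.5% in the CAST/B6 replicates, and the paternal allele was at 1.49%, 0.50%, 1.09% and 1.98%. In epiblast the maternal values in the same order were 91.2%, 97.1%, 97.6% and 96.6% and the paternal values 2.54%, 0, 2.5% and 0. The alleles did not overlap in either tissue, and the paternal allele stayed below 3% in all 8 libraries. The mean parental difference was 93.6 percentage points ± 3.84 (SE, limma) in ExE, adjusted p = 0.027, and 94.4 ± 4.17 in epiblast, limma adjusted p = 0.014.

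The adjoining window chr7:143295640-143296400, which ends just inside the Kcnq1ot1 transcript start, showed the same state. In ExE its maternal allele was at 87.3%, 93.3%, 91.2% and 100% and its paternal allele at 0, 0.813%, 0 and 0. In epiblast the maternal values were 92.1%, 100%, 92.3% and 100% and the paternal values 5.0%, 0, 3.7% and 0. The parental difference was 92.8 ± 4.08 in ExE (limma adjusted p = 0.027) and 93.9 ± 4.67 in epiblast (limma adjusted p = 0.0148). These 2 windows were the only domain windows called by parent of origin in either tissue, out of 104 tested in ExE and 73 in epiblast. Over all autosomal windows the called share was 0.00722% in ExE (23 of 318358) and 0.00838% in epiblast (20 of 238529), and the share called higher on the maternal allele, as both windows were, was 0.00503% and 0.00629%. Leaving out any one of the 4 libraries of a tissue left 0 domain windows called in that tissue, and also 0% of autosomal windows. The same was seen with 1 missing library allowed. On the logit scale chr7:143295640-143296400 was not called in epiblast.

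The remaining gDMR window, chr7:143287099-143293437, lies farther into the Kcnq1ot1 transcript and carried no such contrast. In ExE its maternal allele was at 54.2%, 49.2%, 71.8% and 66.7% and its paternal allele at 64.1%, 61.7%, 60% and 80.3%, a difference of -6.05 ± 5.28 (limma adjusted p = 0.866). The paternal value was higher in 3 of 4 libraries, but the ranges overlapped. Averaged over the windows with values in every library, the gDMR difference was 60.1 ± 3.64 (SD, n = 4) over 3 windows in ExE and 94.1 ± 5.23 (SD, n = 4) over 2 windows in epiblast. It was positive in 4 of 4 libraries of each tissue, and the exact two-sided sign-flip p of 0.125 is the smallest that 4 libraries allow. Over the same 2 windows in both tissues, the difference was 93.2 ± 2.74 in ExE and 94.1 ± 5.23 in epiblast, and the tissues did not differ beyond this spread (-0.97 points, exact permutation p = 0.80, n = 4 and 4).

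At the far edge of the gDMR lay the window that holds the 5′ end of Kcnq1ot1 itself, chr7:143296401-143301072. It overlapped the gDMR but had its midpoint outside, and showed a partial difference. In ExE the maternal allele was at 68.3%, 76.6%, 77.3% and 69.8% and the paternal allele at 41.5%, 39.8%, 31.1% and 30.1%. Every maternal value was above every paternal one. The difference of 37.4 ± 4.18 was the largest outside the gDMR in ExE among windows of 1 sign in 4 of 4 libraries, but limma adjusted p was 0.672. In epiblast the paternal allele was higher than in ExE, at 66.1%, 66.7% and 70.0% in the 3 libraries with a value, against maternal values of 80.8%, 89.4%, 82.6% and 71.7%. When the promoter was instead taken as the windows within 2 kb of the start that had both alleles in every library, Kcnq1ot1 was called in both tissues, at 74.6 points in ExE (limma adjusted p = 0.027) and 94.1 points in epiblast (limma adjusted p = 0.0133). The ExE value rests on the 5′-end window and 2 gDMR windows, and the epiblast value on the 2 gDMR windows alone.

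**Figure D1:**
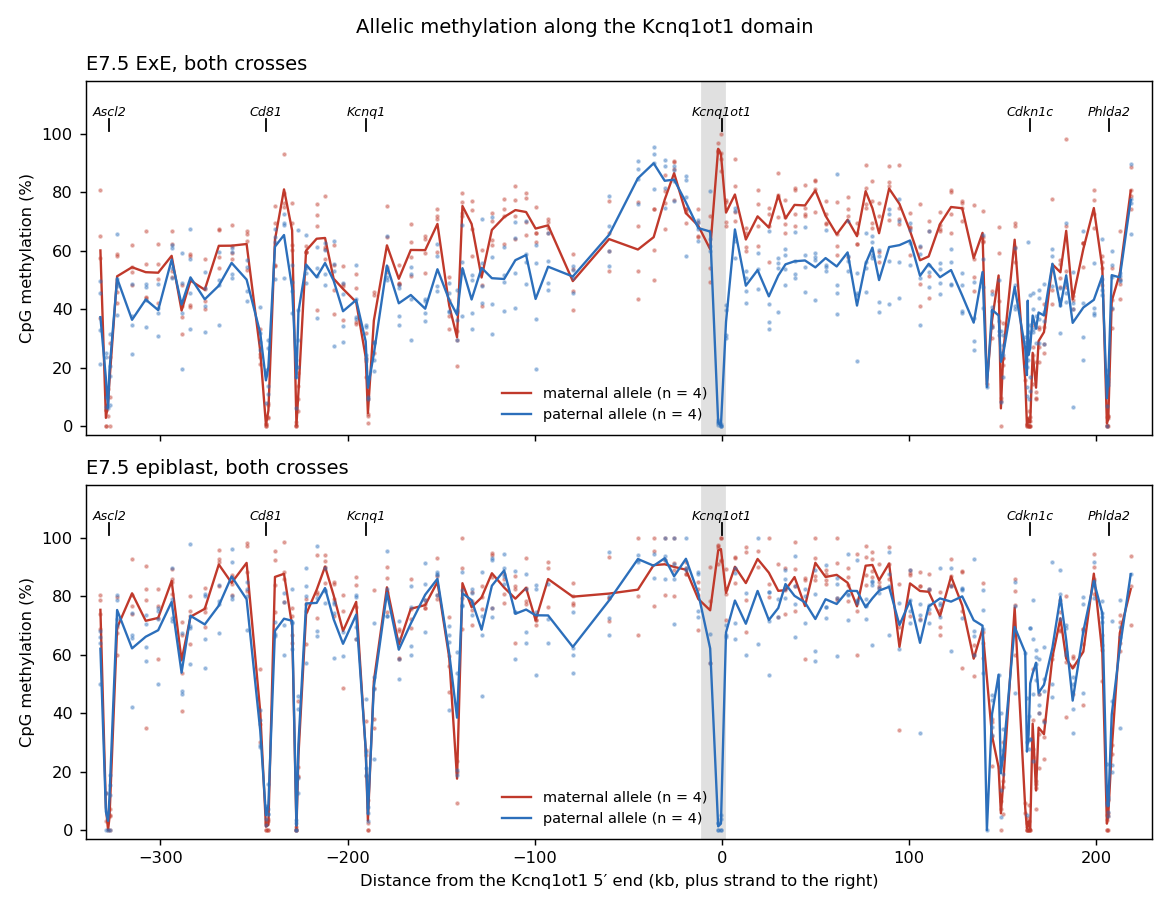
CpG methylation (%) of the maternal (red) and paternal (blue) alleles along the domain at E7.5, against distance in kb from the Kcnq1ot1 5′ end; points are libraries, lines the mean of up to 4 libraries, ticks gene 5′ ends and the grey band the gDMR. In ExE the maternal line runs above the paternal one over much of the domain outside CpG-dense troughs, and in 2 of the 3 gDMR windows the paternal allele falls to between 0 and 1.98%.

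None of the gene 5′-end windows passed the limma threshold in ExE, of 8 that could be tested, or in epiblast, of 6. The 8 include the Kcnq1ot1 window, which overlaps the gDMR, and the 6 do not. At an unadjusted p under 0.05, 4 of the 8 passed in ExE, namely Kcnq1ot1, Cd81, Tssc4 and Phlda2, and 0 of the 6 in epiblast. The autosomal shares were 6.38% and 4.87%. At Cd81, Tssc4 and Phlda2 the maternal allele was nevertheless near 0 in ExE while the paternal allele carried low methylation in every library. Cd81, a tetraspanin of the cell surface, has its 5′ end in chr7:143052697-143053193, where the maternal allele in ExE was at 0, 0.8%, 0 and 0.6% and the paternal allele at 8.0%, 17.3%, 19% and 18.2%. All paternal values were above all maternal values. The difference was -15.3 ± 4.0 (limma adjusted p = 0.777), and in epiblast it was -3.88 ± 4.08 (limma adjusted p = 0.954), with paternal values between 1.8% and 8.1%.

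Tssc4, the neighbour of Cd81, behaved in the same manner in chr7:143068905-143069578. Its maternal allele in ExE was at 1.4%, 0.2%, 0 and 0 and its paternal allele at 6.1%, 16.7%, 20.3% and 22.7%. The values did not overlap. The difference was -16.0 ± 4.17 in ExE (limma adjusted p = 0.777) and -1.24 ± 4.05 in epiblast (limma adjusted p = 0.994), where the paternal allele was at most 3.4%.

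Phlda2, which encodes a pleckstrin homology domain protein that restrains placental growth, has its GENCODE 5′ end in chr7:143502527-143503389. In ExE the maternal allele was at 3.5%, 0, 2.9% and 3.3% and the paternal allele at 19.3%, 14.1%, 15.1% and 16.0%, again without overlap. The difference was -13.7 ± 3.82 in ExE (limma adjusted p = 0.777) and -3.02 ± 4.22 in epiblast (limma adjusted p = 0.968). The RefSeq start falls in the next window, chr7:143501896-143502526, where ExE maternal values were 0 to 3.17% and paternal values 16.5%, 6.96%, 0 and 14.5%, so that 1 library had a lower paternal than maternal value.

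Whether these 3 promoters count as called rests on the settings of the test, its scale and its variance moderation. On a logit scale, which gives more weight to changes near 0, Cd81 (limma adjusted p = 0.00599) and Tssc4 (limma adjusted p = 0.0327) passed in ExE and Phlda2 did not (limma adjusted p = 0.147), and with a variance trend and robust moderation in limma all 3 passed, at 0.0298, 0.0452 and 0.0459. No epiblast promoter passed under either. The paternal allele lay wholly above the maternal one in 1.34% of all autosomal windows tested in ExE. A direct test of the parental difference between tissues at single windows, added after the data had been seen, called 0 of 72 domain windows and 0 of 237650 autosomal windows (0%, limma; 19 and 12852 had an unadjusted p under 0.05, and 1 autosomal window passed with a variance trend), and gave limma adjusted p = 0.912 for Cd81 and Tssc4 and 0.913 for Phlda2. The paternal values were not tested between tissues by themselves. All 4 ExE paternal values lay above all 4 epiblast ones at Tssc4 and Phlda2, and at Cd81 the ranges overlapped.

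The other promoters showed no separation of alleles. Ascl2, a transcription factor needed for the trophoblast, has its 5′ end in chr7:142968872-142969858, where the ExE maternal allele was at 10.0%, 0, 23.5% and 28.5% and the paternal allele at 31.6%, 7.1%, 17.2% and 20.7%. The paternal allele was higher in both B6/CAST libraries and lower in both CAST/B6 libraries. The difference was -3.65 ± 4.34 (limma adjusted p = 0.911), and in epiblast -7.26 ± 4.71 (limma adjusted p = 0.941). With 1 library left out these ran from -7.26 to -0.04 in ExE and from -10.6 to -3.87 in epiblast. Kcnq1, a potassium channel subunit, was at 16.9% to 31.9% on the maternal and 23.0% to 34.6% on the paternal allele in ExE in chr7:143105291-143107175. Its paternal value was higher in 4 of 4 ExE libraries, by 5.38 ± 4.12 points (limma adjusted p = 0.844), and in 2 of 4 epiblast libraries. Tspan32, another tetraspanin gene, differed by 1.28 ± 4.17 points in ExE and Trpm5, a cation channel of taste cells, by 7.63 ± 5.67 points (limma adjusted p = 0.985 and 0.839), both with overlapping alleles. The Trpm5 difference was 0.65 points without B6/CAST replicate 1 and 14.6 points without B6/CAST replicate 2. Slc22a18, a transporter gene, had both alleles in 3 ExE libraries and was not tested.

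The 5′-end window of Cdkn1c, chr7:143460585-143461055, had no allelic value in any library, so its promoter was read from its neighbours. Cdkn1c encodes a cyclin-dependent kinase inhibitor that restrains growth. Just upstream, in chr7:143461066-143461441, the ExE maternal allele was at 0, 0, 3.12% and 1.83% and the paternal allele at 34.6%, 44.9%, 16.7% and 11.8%, without overlap (-25.8 ± 4.11, limma adjusted p = 0.777). In the gene, chr7:143460150-143460584 was at 0, 5.26%, 0 and 0 on the maternal and 32.1%, 26.7%, 9.09% and 29.1% on the paternal allele. In epiblast these windows lacked some alleles, and where measured the paternal allele reached 69.2% and the maternal allele 8.67% at most. Over the 4 of 7 windows within 2 kb of the start that had both alleles in every ExE library, the ExE difference was -19.6 ± 3.89, negative in 4 of 4 libraries (limma adjusted p = 0.777).

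A window between Cdkn1c and Slc22a18, chr7:143463663-143465056, had the largest epiblast difference outside the gDMR among windows with both alleles in all 4 libraries. There the maternal allele was at 16.7%, 7.14%, 15.8% and 14.4% and the paternal allele at 59.1%, 51.5%, 61.5% and 56.9%. The groups were far apart, at -43.7 ± 4.03 (limma adjusted p = 0.218). In ExE the maternal allele was at 9.52%, 22.0%, 9.33% and 11.6% and the paternal allele, with 1 library missing, at 28.4%, 34.0% and 37.5%. None of these windows passed the adjusted threshold in the test described, but with a variance trend and robust moderation this window passed in epiblast (limma adjusted p = 0.0135) and chr7:143461066-143461441 passed in ExE (limma adjusted p = 0.00233), as it did on the logit scale (limma adjusted p = 0.00271). On that scale chr7:143459299-143459689, also within 2 kb of the Cdkn1c start, passed in ExE as well (limma adjusted p = 0.00826), with maternal values of 0.408%, 0, 0.758% and 0 and paternal values of 13.4%, 25.8%, 20.1% and 10.3%. The difference between tissues was not tested at chr7:143463663-143465056 because of the missing value.

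**Figure D2:**
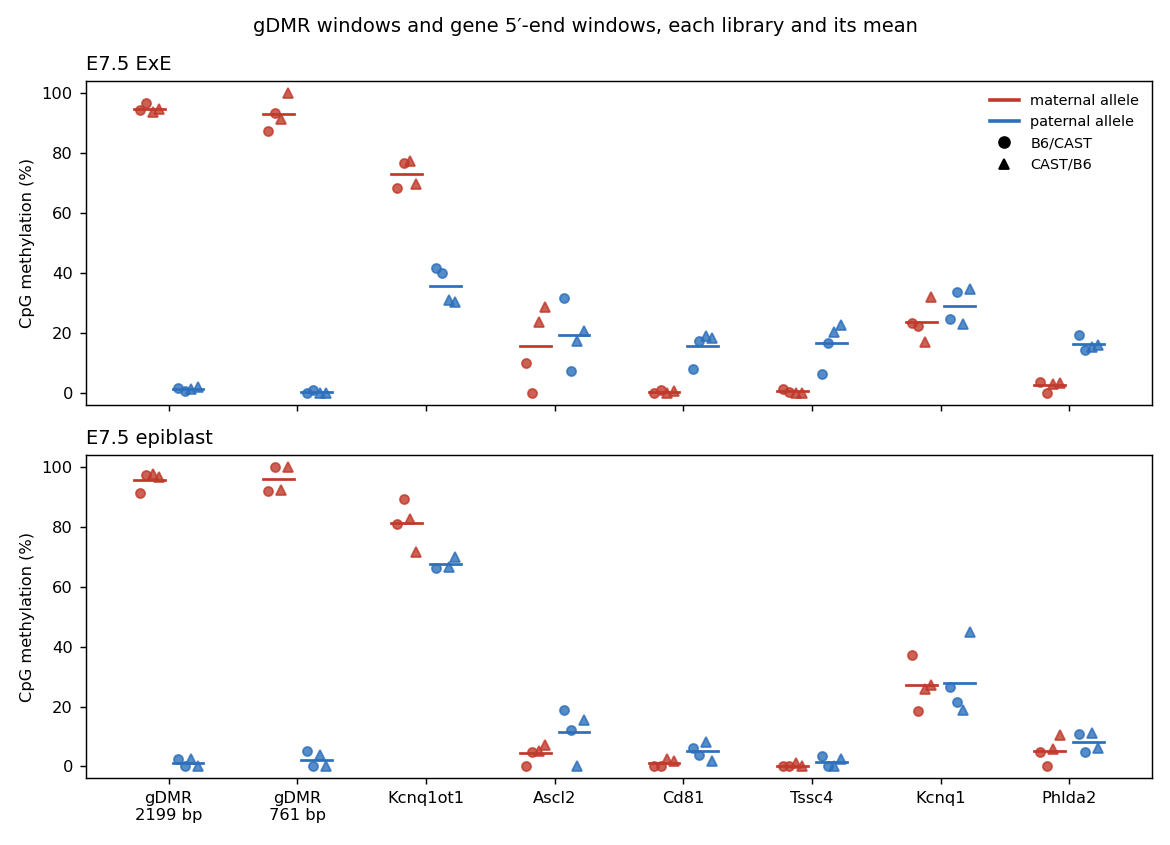
CpG methylation (%) at E7.5 in 2 gDMR windows and in the windows holding the 5′ ends of Kcnq1ot1, Ascl2, Cd81, Tssc4, Kcnq1 and Phlda2; each point is 1 library (circles B6/CAST, triangles CAST/B6), bars are means, red is maternal and blue paternal. In ExE the paternal points of Cd81, Tssc4 and Phlda2 lie between 6.1% and 22.7%, above all maternal points, and in epiblast at 11.3% or less.

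Outside the gDMR the direction of the parental difference in ExE went with window length, a split chosen after the values had been seen and given as a description. Windows hold a fixed number of CpG positions, so a short window is CpG-dense. Over the 101 windows outside the gDMR tested in ExE, 36 were higher on the maternal allele in every library and 17 on the paternal allele, against 6.32% and 6.57% of autosomal windows, and in 25 and 11 the 2 sets of 4 values did not overlap, against 1.42% and 1.34%. In epiblast the numbers were 8 and 7 of 71 windows, against 5.75% and 6.62%, and 4 and 4 did not overlap, against 1.22% and 1.3%. Of the 14 tested windows under 2 kb outside the gDMR, 11 were higher on the paternal allele in 4 of 4 ExE libraries and 0 on the maternal allele, against 9.14% and 4.92% of all autosomal windows under 2 kb. In 9 of the 14 all 4 paternal values were above all 4 maternal ones, against 1.35% of autosomal windows under 2 kb. Their mean was 8.9% ± 1.4 on the maternal and 22.8% ± 3.3 on the paternal allele (SD, n = 4). The per-library difference was -16.6 and -18.9 points in B6/CAST and -9.9 and -10.5 in CAST/B6. In epiblast 2 of 9 such windows were higher on the paternal allele in 4 of 4 libraries, with means of 12.7% ± 1.3 and 22.2% ± 2.4, and the autosomal share was 10.8%.

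Of the 87 longer windows outside the gDMR, 36 had the higher value on the maternal allele in all 4 ExE libraries and 6 on the paternal allele, where the autosomal shares for windows of 2 kb or more were 6.41% and 6.4%. Their maternal mean was 61.0% ± 2.0 and their paternal mean 51.2% ± 4.3 (SD, n = 4). The difference was 4.9 and 6.7 points in the B6/CAST replicates and 14.0 and 13.7 points in the CAST/B6 replicates, so its sign was the same in both crosses and its size was not. Over all autosomal windows the same libraries differed by 0.6, 0.5, -0.8 and -0.6 points. In epiblast 8 of 62 longer windows had a maternal excess in each of the 4 libraries and 5 a paternal excess. The shares of autosomal windows of that length were 5.83% and 6.38%. At an unadjusted limma p under 0.05, 42 of the 101 outside windows in ExE were higher on the maternal and 12 on the paternal allele, against autosomal shares of 3.15% and 3.22%. In epiblast 9 and 3 of 71 were, against 2.33% and 2.54%. Neighbouring windows are not independent of each other, and none of these windows passed the adjusted threshold.

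Averaged over all windows outside the gDMR, the 2 directions partly cancelled. The parental difference was 6.53 ± 4.63 points in ExE (SD, n = 4, positive in 4 of 4 libraries, exact sign-flip p = 0.125) and 1.26 ± 3.30 in epiblast (positive in 3 of 4, exact sign-flip p = 0.375). Over the 70 windows shared by both tissues it was 7.66 ± 4.21 in ExE and 1.90 ± 3.37 in epiblast, and the difference between tissues of 5.77 points did not exceed the spread between libraries (exact permutation p = 0.143, n = 4 and 4, two-sided). The strain term of the same ExE fit had an unadjusted p under 0.05 at 13 of 104 domain windows, against 8.73% of autosomal windows, and passed the adjusted threshold at none of the autosomal windows.

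By position, the maternal excess in ExE outside the gDMR was greatest, over the tested windows, along Kcnq1 beyond the Kcnq1ot1 5′ end, chr7:143298001-143427042. Over only the windows measured in both tissues, the ExE mean was 14.8 points in this part and 15.5 between the Kcnq1 start and the Kcnq1ot1 3′ end. Beyond the 5′ end the maternal allele averaged 71.5% ± 2.6 and the paternal allele 53.8% ± 5.0 over 24 tested windows. The difference was 9.7, 16.1, 21.2 and 24.0 points in the 4 libraries. In 14 of these windows every library had the higher value on the maternal allele, and in 0 on the paternal allele, against 6.32% and 6.57% of autosomal windows. In epiblast the alleles stood at 84.8% ± 2.1 and 77.6% ± 6.2 over 14 windows. Over the same 14 windows the difference was 8.8, 11.2, 18.5 and 20.7 points in ExE. In epiblast it was 0.9, 12.3, 8.8 and 6.7 points, so the ranges of the tissues overlapped. The window at the far end of Kcnq1, chr7:143421443-143428400, was among the 3 with the largest ExE difference, at 29.8 ± 4.28 (limma adjusted p = 0.777), with maternal values of 74.6%, 70.0%, 77.1% and 76.2% and paternal values of 52.4%, 39.2%, 38.6% and 48.3%. In epiblast it differed by -3.11 ± 6.14. The third such window, chr7:143492818-143497658 within Slc22a18, was at 77.2%, 80.8%, 72.4% and 67.8% on the maternal and 55.8%, 38.6%, 40.2% and 38.0% on the paternal allele in ExE (31.4 ± 4.86, limma adjusted p = 0.777), and differed by 2.60 ± 4.95 in epiblast.

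The region transcribed by Kcnq1ot1 below its gDMR, chr7:143203458-143285999, stood apart from this pattern. In ExE its maternal allele averaged 68.0% ± 5.3 and its paternal allele 73.1% ± 3.0 over 9 windows, and the per-library difference was -4.2, -13.9, 2.5 and -4.8 points. The paternal allele, which is the one known to transcribe Kcnq1ot1, was thus higher in 3 of 4 libraries. Between the Kcnq1 start and the Kcnq1ot1 3′ end, in chr7:143106362-143203457, the difference turned positive again, at 2.3, 7.9, 17.7 and 18.4 points over 17 windows, with a maternal excess in every library at 10 of them, against the same 6.32% of autosomal windows. From Ascl2 to the Kcnq1 start it was 2.0, -0.8, 4.2 and 3.7 points, and from the Kcnq1 end to Phlda2 it was -4.5, -2.4, 5.7 and 4.3. Fewer windows had values in epiblast, where the Kcnq1ot1 transcribed region was at 2.1, 8.1, 7.6 and 3.1 points over 4 windows. Over the same 4 windows ExE was at 3.9, -9.6, 7.7 and -2.0 points, so the ranges of the tissues overlapped. From the Kcnq1 end to Phlda2 the epiblast difference was -14.2, -6.4, -5.9 and -8.2 points over 15 windows, negative in 4 of 4. Over the 14 windows measured in both tissues it was -12.1, -3.7, -3.1 and -5.8 points in epiblast and -1.7, 0.36, 5.2 and 6.2 in ExE. From Ascl2 to the Kcnq1 start it was 3.4, 7.0, 4.5 and -1.2 points. Between the Kcnq1 start and the Kcnq1ot1 3′ end it was -7.3, -1.9, 8.9 and 4.7 points over 14 windows, of which 0 had 1 sign in all 4 libraries. In epiblast the 3 largest differences of 1 sign outside the gDMR included chr7:143400283-143404474 in Kcnq1 (17.7 ± 5.72) and chr7:143208942-143224823 in the Kcnq1ot1 transcript (17.2 ± 4.59), both higher on the maternal allele and both at limma adjusted p = 0.941.

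**Figure D3:**
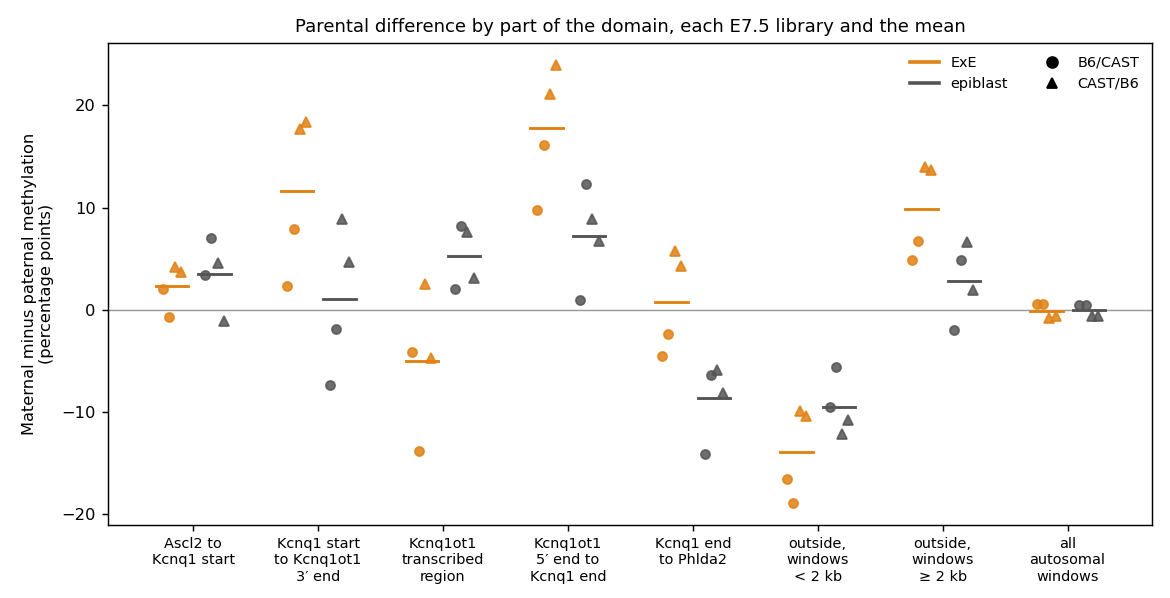
Maternal minus paternal methylation (percentage points) at E7.5, averaged over the tested windows of each part of the domain outside the gDMR, over outside windows by length and over all autosomal windows; each point is 1 library (circles B6/CAST, triangles CAST/B6), bars are means, orange is ExE and grey epiblast. In ExE all 4 points lie above 0 beyond the Kcnq1ot1 5′ end (9.7 to 24.0) and below 0 for windows under 2 kb (-18.9 to -9.9), and the epiblast points have the same signs there (0.9 to 12.3 and -12.2 to -5.6).

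With alleles together, the domain outside the gDMR was less methylated in ExE than in epiblast on both days. At E7.5 the library means over 112 windows were 45.6% to 49.3% in ExE and 58.7% to 62.1% in epiblast, a difference of -13.5 points (exact permutation p = 0.0286, n = 4 and 4, the smallest this design allows). At E6.5 they were 43.4% to 51.4% over 82 windows in the wild-type ExE libraries and 55.1% to 66.6% in the epiblast ones, a difference of -15.4 points (exact permutation p = 0.00476, n = 4 and 6). These ranges did not overlap. The gap was no larger than that of the genome, and once each library's mean over autosomal windows was subtracted, it turned to +2.85 points at E7.5 and 1.20 points at E6.5. At single windows 86 of 115 were called between tissues at E7.5 (81 lower and 5 higher in ExE), against 84.2% of autosomal windows, and 50 of 83 at E6.5 (48 lower, 2 higher), against 60.3%. By direction the autosomal shares were 82.9% lower and 1.3% higher at E7.5, and 59.6% and 0.663% at E6.5.

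The promoters did not all follow the domain. Ascl2 was higher in ExE at E7.5, at 11.9%, 16.6%, 21.5% and 19.7% against 5.2%, 7.8%, 4.5% and 5.2% in epiblast (11.8 ± 2.51, limma adjusted p = 0.00227). At E6.5 its wild-type values overlapped, at 19.8%, 7.3%, 0 and 15.8% in ExE against 0 to 8.3% in epiblast. It was not called there. Cd81 was higher in ExE on both days, by 5.91 ± 2.27 at E7.5 (limma adjusted p = 0.036) and by 13.1 ± 4.71 at E6.5 (limma adjusted p = 0.0317). Both Cd81 calls rest on single libraries. The E7.5 call was lost without any one of the 4 epiblast libraries or without ExE replicate 1 of either cross, and the E6.5 call without any one of the CAST/B6 epiblast libraries or without ExE replicate 1 of either cross. With 1 library left out, its limma adjusted p ran from 0.0422 to 0.102 at E7.5 and from 0.0141 to 0.109 at E6.5. Tspan32 fell by 23.1 ± 2.24, Trpm5 fell by 15.2 ± 5.08 and Slc22a18 fell by 14.5 ± 4.27 in ExE at E7.5 (limma adjusted p = 9.4e-05, 0.0204 and 0.0116). Trpm5 was lost without B6/CAST epiblast replicate 1, CAST/B6 epiblast replicate 2 or CAST/B6 ExE replicate 1 (limma adjusted p of 0.0637 at most). At E6.5 Tspan32 and Trpm5 were lower in ExE as well (limma adjusted p = 0.0133 and 0.000438). Both stayed called with any 1 library left out. Slc22a18 was not among the E6.5 calls. Tssc4, Kcnq1, Kcnq1ot1, Cdkn1c and Phlda2 did not pass at E7.5. No gDMR window passed between tissues in the main fit, while 1 passed at E7.5 with the replicate number as a block. In the main fit of chr7:143295640-143296400, ExE was at 32.3% to 48.0% and epiblast at 20.6% to 50.3% (-0.30 ± 5.95, limma adjusted p = 0.967). The E7.5 values of this window were at most 50.3%, while its alleles stood near 0 and near 100%.

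In the maternal DKO 2 of the 3 gDMR windows were low in methylation. The E6.5 window chr7:143295618-143296400 was at 0 in all 3 matDKO/CAST ExE libraries, while it was at 54.2% and 55.7% in B6/CAST and at 82.2% and 100% in CAST/B6 ExE. In epiblast it was at 33.7% and 0 in the matDKO/CAST replicates 1 and 3, at 70.2%, 83.3% and 57.4% in B6/CAST and at 92.0%, 61.6% and 71.5% in CAST/B6. The matDKO values were the lowest in both tissues, although the 2 epiblast libraries were far apart. The wild-type values, 54.2% to 100%, lay above those of the overlapping E7.5 window (50.3% at most), for a reason that was not tested. The next window, chr7:143291905-143295617, was at 8.33%, 19% and 20% in matDKO/CAST ExE against 62.2% and 53.5% in B6/CAST and 83.3% and 63.2% in CAST/B6. In epiblast it was at 5.0% and 12.1% in matDKO/CAST, at 38.4% and 65.7% in the 2 B6/CAST libraries with a value, and at 74.4%, 23.7% and 75% in CAST/B6. The remaining window, chr7:143284079-143291721, was at 49.6%, 31.8% and 45.8% in matDKO/CAST ExE, against 64.1% and 60% in B6/CAST and 86.8% and 64.3% in CAST/B6. In epiblast it was at 66.7% and 60% in matDKO/CAST, at 80.4% and 70% in the 2 B6/CAST libraries with a value, and at 62.5%, 87.0% and 81.2% in CAST/B6. Thus it stayed partly methylated in the maternal DKO, and in epiblast 1 matDKO/CAST value lay inside the wild-type range.

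Against B6/CAST, the first of these windows fell by 53.5 ± 12.5 points in epiblast (limma adjusted p = 0.024). This call was lost without B6/CAST replicate 3 (-46.9 points, limma adjusted p = 0.0643). Without matDKO/CAST replicate 3, which leaves 1 library in that group, the difference was -36.6 points. The call was also lost on the logit scale and with the replicate number as a block, where 0% of autosomal windows were called. In ExE it fell by 54.9 ± 6.75 and the next window fell by 42.1 ± 7.89, both at limma adjusted p = 0.132, and the remaining window differed by -19.7 ± 8.59 (limma adjusted p = 0.194). In ExE limma called 0 of 85 domain windows and 0% of autosomal windows, also on the logit scale and with a variance trend, with 2 B6/CAST libraries as the reference, although 39 of the 85 had an unadjusted limma p under 0.05, against 25.8% of autosomal windows. With both wild-type crosses pooled, 52 of the 85 were called, including all 3 gDMR windows, against 49.0% of autosomal windows. Averaged over the gDMR windows, ExE was at 19.4% ± 2.51 in matDKO/CAST (SD, n = 3) and 58.3% ± 2.68 in B6/CAST (SD, n = 2), and the exact permutation p of 0.10 is the smallest for these numbers. In epiblast the 1 window with values in every library gave 16.8% ± 23.8 (SD, n = 2) against 70.3% ± 13 (SD, n = 3), exact permutation p = 0.10, again the smallest.

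The reciprocal wild-type crosses were also compared at the gDMR. In ExE the gDMR mean was 80.0% ± 5.89 in CAST/B6 and 58.3% ± 2.68 in B6/CAST (SD, n = 2 each), a gap of 21.7 points with exact permutation p = 0.333, the smallest for 2 against 2. The whole-genome means of these libraries differed in the same direction, by the values given above. With each library's autosomal mean subtracted, the gap was 9.06 points. In epiblast the means were 75% ± 15.5 and 70.3% ± 13 (SD, n = 3 each), exact permutation p = 0.60.

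Outside the gDMR, methylation in the maternal DKO was lower over most of the domain. Over 74 windows in epiblast matDKO/CAST was at 40.7% ± 0.76 (n = 2) and B6/CAST at 58.6% ± 3.56 (n = 3), a difference of -17.9 points. Over 82 windows in ExE it was at 27.6% ± 1.89 (n = 3) against 44.1% ± 0.12 (n = 2), a difference of -16.5 points. Both have an exact permutation p of 0.10, the smallest possible. Over all autosomal windows the median difference was -16.4 points in epiblast and -12.4 points in ExE. With each library's autosomal mean subtracted, the difference outside the gDMR was -0.97 points in epiblast (exact permutation p = 0.60) and -4.51 points in ExE (exact permutation p = 0.10). In epiblast 25 of 75 domain windows were called, all lower, against 23.4% of autosomal windows, and 24 of the 25 lay outside the gDMR. On the logit scale this count fell to 0, with 0% of autosomal windows called. With both wild-type crosses pooled it was 39, against 53.1% of autosomal windows. Without B6/CAST replicate 3 it was 15 of 79, against 10.1%. Without the unnumbered B6/CAST replicate it was 13 of 75, against 5.44%.

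Among the 5′-end windows in matDKO/CAST epiblast, Phlda2 stood at 2.9% and 0 against 23.3%, 21.1% and 15.6% in B6/CAST, and fell by 18.5 ± 5.44 (limma adjusted p = 0.0419). The CAST/B6 values were 10.3%, 7.7% and 16.7%, of which the highest lay within the B6/CAST range. Trpm5 fell by 25.3 ± 5.97 (limma adjusted p = 0.0246). Leaving out any one of the 5 libraries took Phlda2 out of the calls (limma adjusted p = 0.0632 to 0.117). Trpm5 was lost without the unnumbered B6/CAST replicate or without matDKO/CAST replicate 3 (limma adjusted p of 0.0721 at most). On the logit scale neither passed (limma adjusted p = 0.117 and 0.171). Cd81 and Ascl2, whose 5′ ends are low in every cross, did not pass, at -0.62 ± 4.80 and 0.21 ± 5.15. In ExE the window of the Kcnq1ot1 5′ end, chr7:143296401-143302132, was at 24.8%, 42.9% and 25.0% in matDKO/CAST against 58.5% and 78.1% in B6/CAST (-37.4 ± 8.50, limma adjusted p = 0.132).

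The Kcnq1ot1 transcribed region was the part of the domain that differed least from B6/CAST in the maternal DKO ExE, a comparison of parts chosen after the values had been seen. Its mean over 6 windows was 57.4%, 70.5% and 66.5% in the 3 matDKO/CAST libraries and 65.5% and 70.9% in B6/CAST, so the groups overlapped. On its other side, from the Kcnq1ot1 5′ end to the end of Kcnq1, matDKO/CAST was at 34.8%, 36.5% and 26.2% over 20 windows against 57.1% and 57.3%. Between the Kcnq1 start and the Kcnq1ot1 3′ end it was at 24.9%, 23.0% and 20.6% over 12 windows against 42.2% and 40.5%. None of the 6 windows of the transcribed region had an unadjusted limma p under 0.05 in ExE, while 15 of the 20 beyond the 5′ end did, against 25.8% of autosomal windows. In epiblast the transcribed region did not show the same overlap, with 60.2% and 63.3% in matDKO/CAST against 71.9%, 77.9% and 85.5% in B6/CAST over 7 windows.

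**Figure D4:**
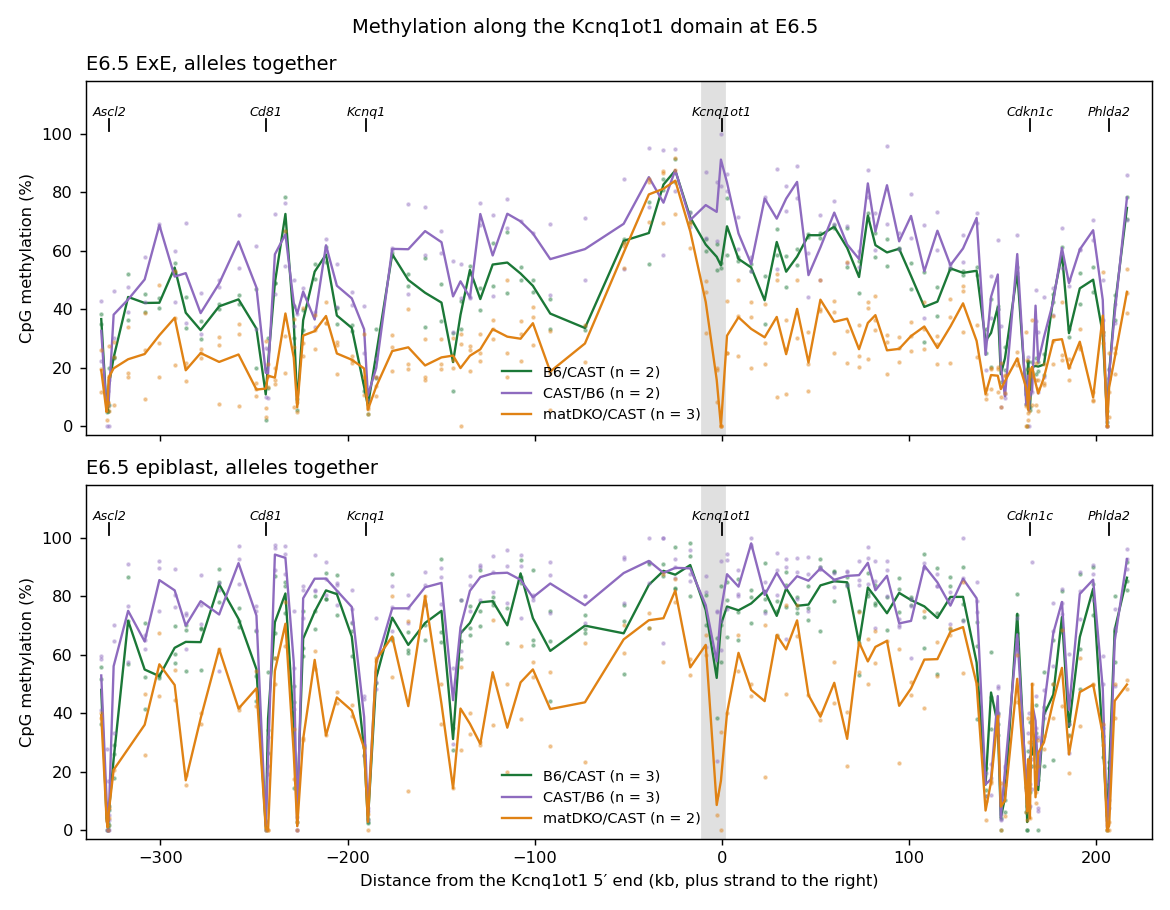
CpG methylation (%) along the domain at E6.5 with alleles together, against distance in kb from the Kcnq1ot1 5′ end; points are libraries, lines group means (B6/CAST green, CAST/B6 purple, matDKO/CAST orange), ticks gene 5′ ends and the grey band the gDMR. In ExE the matDKO/CAST line comes close to the wild-type lines over the Kcnq1ot1 transcript, where its libraries average 57.4% to 70.5%, and drops to 0 in 1 gDMR window.

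The 2 days cannot be compared by a test, since day goes with the kind of library, the pooling of embryos and the grid of windows. Side by side, the domain outside the gDMR stood at 44.1% and 51.4% in E6.5 B6/CAST and CAST/B6 ExE and at 48.2% and 46.6% in E7.5 ExE. In epiblast the corresponding values were 58.6% and 65.1% at E6.5 and 60.4% and 61.4% at E7.5. The Kcnq1ot1 transcribed region was the most methylated part outside the gDMR in ExE on both days, at 68.2% and 74.3% at E6.5 and 68.0% and 70.1% at E7.5.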

How the data were processed

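CpG methylation was measured by post-bisulphite adaptor tagging in 23 mouse libraries. The deposited tables hold the percent methylation that the authors computed over windows of 100 CpG positions (GRCm38), which held 46 to 52 CpG dinucleotides in the E7.5 gDMR windows, so both strands were counted. Per the labels' processing notes, reads were trimmed with Trim Galore 0.4.4 and aligned with Bismark 0.20.0 for the E6.5 libraries. The E7.5 allelic table was split with SNPsplit by strain polymorphisms on a masked genome, so windows poor in them have no value. Bisulphite conversion of the E7.5 DNA was repeated because the first conversion was poor, and the part of that in the values is not known. The tables hold no coverage, so no counting error could be given. Of the columns, 5 carry "reimport" in their name, which no source used here explains, and 1 of them (a B6/CAST E6.5 epiblast column) could be tied to its group but not to a numbered replicate.

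Windows were tested with limma 3.58.1 (R 4.3.3) on the percent scale, over every autosomal window with values in all libraries compared, with Benjamini-Hochberg adjustment over all of them and a threshold of 0.05. The parental test used the maternal minus paternal difference within each E7.5 library, with a strain term. Tissue fits had a cross term. The maternal DKO was compared with B6/CAST. The fits were tested on simulated data. Region means were compared with exact permutation or sign-flip tests, two-sided, in Python 3.11.15. Where the labels do not state separate litters, p-values measure the spread between these libraries only. Replicate pairs shared at most 0.766% identical values between 0 and 100%, so none was merged.

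Gene 5′ ends came from GENCODE vM21. Named in the text are the 6 members, other protein-coding genes with a 5′ end in the domain, every gDMR window, windows called by parent of origin and, per tissue, 3 windows outside the gDMR chosen for the size of a parental difference of 1 sign in 4 of 4 libraries. Neighbours of the Cdkn1c window and the Phlda2 window at the RefSeq start were added after their values had been seen. The members, lists and tests were chosen with earlier results of these data known. The alternatives were other summaries of the gDMR, a logit scale, limma with a variance trend, 1 missing library, a minimum difference of 20 points, fits without the strain or cross term, the replicate number as a block, pooled wild-type crosses, a 2 kb promoter and each library left out. A coverage minimum could not be tried.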

Additional observations from a re-analysis of the deposited data

Results flagged for a closer look

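At the Phlda2 5′-end window in epiblast, 1 library stood far from the other 3: its maternal minus paternal difference was 4.09 points, and the next highest was -4.65. This gap took up 0.874 of the range. In all, 18 sets of 4 libraries were examined in this way, and chance marks about 1 in 20.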

How the results depend on the processing

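Of 219 alternatives for the main results, 178 kept direction and side of the threshold, and of 140 for single promoters 128 did. Several exact tests have a smallest possible p of 0.10 or more. For those only pooling the wild-type crosses could bring p under 0.05, so their side of the threshold was otherwise fixed in advance. With each library's autosomal mean subtracted, the domain outside the gDMR turned from lower to higher in ExE, at 2.85 points at E7.5 and 1.20 at E6.5, and CAST/B6 minus B6/CAST at the epiblast gDMR turned to -4.14. With both wild-type crosses pooled, the exact tests of the maternal DKO passed 0.05: -55.8 (gDMR) and -21.1 (outside) in epiblast, -49.7 and -20.1 in ExE. The window calls were then 39 in epiblast and 52 in ExE, against 53.1% and 49.0% of autosomal windows. Domain windows called by parent in ExE were 6 on the logit scale and 6 with variance trend and robust moderation (0.0151% and 0.0166% of autosomal windows). With 1 missing library allowed they were 0, as over all autosomal windows. In epiblast they were 1 on the logit scale and 3 with trend and robust moderation (0.00503% and 0.0117% of autosomal windows). Of these 3, 1 lay outside the gDMR and was lower on the maternal allele. With 1 missing library allowed they were 0 in epiblast too, as over all autosomal windows. Promoters called in ExE were 2 on the logit scale, 3 with trend and robust moderation and 1 with the 2 kb promoter, and in epiblast 1 with the 2 kb promoter. With a minimum difference of 20 points, tissue calls were 35 at E7.5 and 32 at E6.5, against 36.4% and 38.6% of autosomal windows. On the logit scale 0 windows were called by matDKO in epiblast, in the domain or over all autosomal windows.

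Deviations of libraries with the same replicate number correlated at 0.0506 at most. With 2 libraries per group at E7.5, this cannot tell whether same-numbered epiblast and ExE libraries came from 1 embryo. The main tests between tissues treat them as independent. With a replicate block, calls were 0 by parent in ExE, 17 of 83 by tissue at E6.5 and 0 by matDKO in epiblast. The shares of autosomal windows were 0%, 21.3% and 0%. The block left the outside tissue difference at -13.5 points at E7.5 and -14.0 at E6.5, where its exact tests cannot reach 0.05. Promoters called went from 3 to 1 by tissue at E6.5, where Trpm5 stayed, Cd81 had limma adjusted p = 0.0648 and Tspan32 0.0805, and from 2 to 0 by matDKO in epiblast.

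Leaving out each library gave 0 to 0 domain windows called by parent in both tissues and 13 to 25 called by matDKO in epiblast. The maternal DKO difference at the epiblast gDMR ranged from -70.3 to -36.6 and the Trpm5 promoter in ExE from 0.65 to 14.6. The gDMR difference between tissues ranged from -3.07 to 0.50, CAST/B6 minus B6/CAST at the epiblast gDMR from -3.80 to 11.4, the Tspan32 promoter in ExE from -1.28 to 3.85 (-0.39 with the 2 kb promoter) and the Kcnq1 promoter in epiblast from -6.79 to 5.51 (1.91 with the 2 kb promoter). The cause of these changes was not tested. Unknown depth limits all single-window values.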
